A study of Ovis aries with 19 samples.

Results

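The slow fibre contractile proteins are the sarcomere proteins by which slow-twitch muscle fibres are recognised, together with partners of the Z-disc, the plate that anchors the thin filaments. They were followed here in the muscle of female sheep exposed to excess testosterone before birth. The set named 10 genes, MYH7, MYL2, MYL3, TNNC1, TNNI1, TNNT1, TPM3, MYOZ2, CSRP3 and ANKRD2, looked up by symbol among 28524 gene identifiers, and 9 of them had a row. MYH7, the slow myosin heavy chain itself, was not analysed here. All 9 passed the filter for testing, a mean of at least 10 normalized reads in muscle.

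Muscle RNA of 5 sheep labelled as prenatal T-treatment (sheep 48, 63, 185, 233 and 255) was compared with that of 5 control sheep (98, 131, 132, 179 and 201). Liver libraries came from the same animals, 5 prenatal T sheep and 4 controls, since liver of control 132 was not used here. Each library held the RNA of 1 animal. The sources used here do not give the testosterone dose or timing, the breed, the age at sampling or which muscle was taken. Levels are normalized read counts, the reads of a gene divided by a size factor of its library. They compare a gene between libraries, but they are not corrected for gene length, so levels of different genes are not ranked against each other.

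A skeletal muscle is a mosaic of slow fibres, which contract slowly and resist fatigue, and of fast fibres. Each type builds its sarcomeres from its own copies of myosin and of the thin filament proteins. On the thin filament the troponin complex has a calcium-binding subunit (TNNC1 in slow fibres, TNNC2 in fast), an inhibitory subunit (TNNI1 and TNNI2) and a tropomyosin-binding subunit (TNNT1 and TNNT3). Calcineurin, a calcium-activated phosphatase, and the coactivator PPARGC1A are known to favour the slow programme in rodents, whereas the transcription factor SOX6 represses it. In a bulk library, fewer slow fibres and less slow-fibre RNA per fibre cannot be told apart.

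Between 8455563 and 14331578 reads per muscle library could be recovered from the deposited values. All 5 markers of skeletal fibres were present in every muscle library, with a summed level of 549467 to 995479 normalized reads in prenatal T muscle and 906642 to 1071330.0 in control muscle. Of 5 cardiac markers with a row, 2 were at 0 in every muscle library. Their summed level was 6.80 to 38.3 in prenatal T muscle and 2.32 to 40.7 in control muscle, so markers of heart muscle were at or near 0 in both groups. Summed adipocyte markers were lower in prenatal T muscle, at 166 to 567, against 569 to 1810.1 in control muscle. Summed satellite cell markers (PAX7 and MYF5) were higher, at 45.7 to 91.3 in prenatal T muscle against 15.4 to 43.7 in control muscle. None of these markers passed in limma, with a lowest adjusted p of 0.217 for adipocyte and 0.151 for satellite markers. DESeq2 called 1 satellite marker, against 1.94% of all genes tested. Among single genes, 3.29% of all tested had groups that did not overlap, and no such share was computed for sums of genes. Summed fibroblast, endothelial, smooth muscle, immune and Schwann cell markers overlapped between the groups. The part of adipocytes or satellite cells in the member results was not tested.

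None of the 9 slow-fibre genes passed the test for a difference between prenatal T and control muscle, given the spread between sheep. With limma on log2(normalized reads + 1) and Benjamini-Hochberg adjustment over 12966 genes, 0 of the 9 passed at 0.05, with adjusted p from 0.279 to 0.921. The background was low too, since 1 of all genes tested passed (0.00771%). At an unadjusted p under 0.05 there was 1 member, CSRP3, against 1862 of all genes tested (14.4%, with 7.37% higher in prenatal T muscle and 7.0% lower). The log2 fold change was above 0 for 5 members and below 0 for 4, against 51.6% below 0 among all genes tested (7 above and 2 below when the contractile genes and the 50 most abundant genes were left out of the scaling, which raised the median of all genes by 0.12). Its median over the members was 0.07, against -0.01 over all genes. In 0 of the 9 did the values of the groups fail to overlap, against 3.29% of all genes tested. On the recovered reads, edgeR also called 0 members with 0.00771% of all genes called. DESeq2 called 0 members with 1.94% of all genes called, and CSRP3 was the 1 member at an unadjusted p under 0.05 with either tool.

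**Figure D1:**
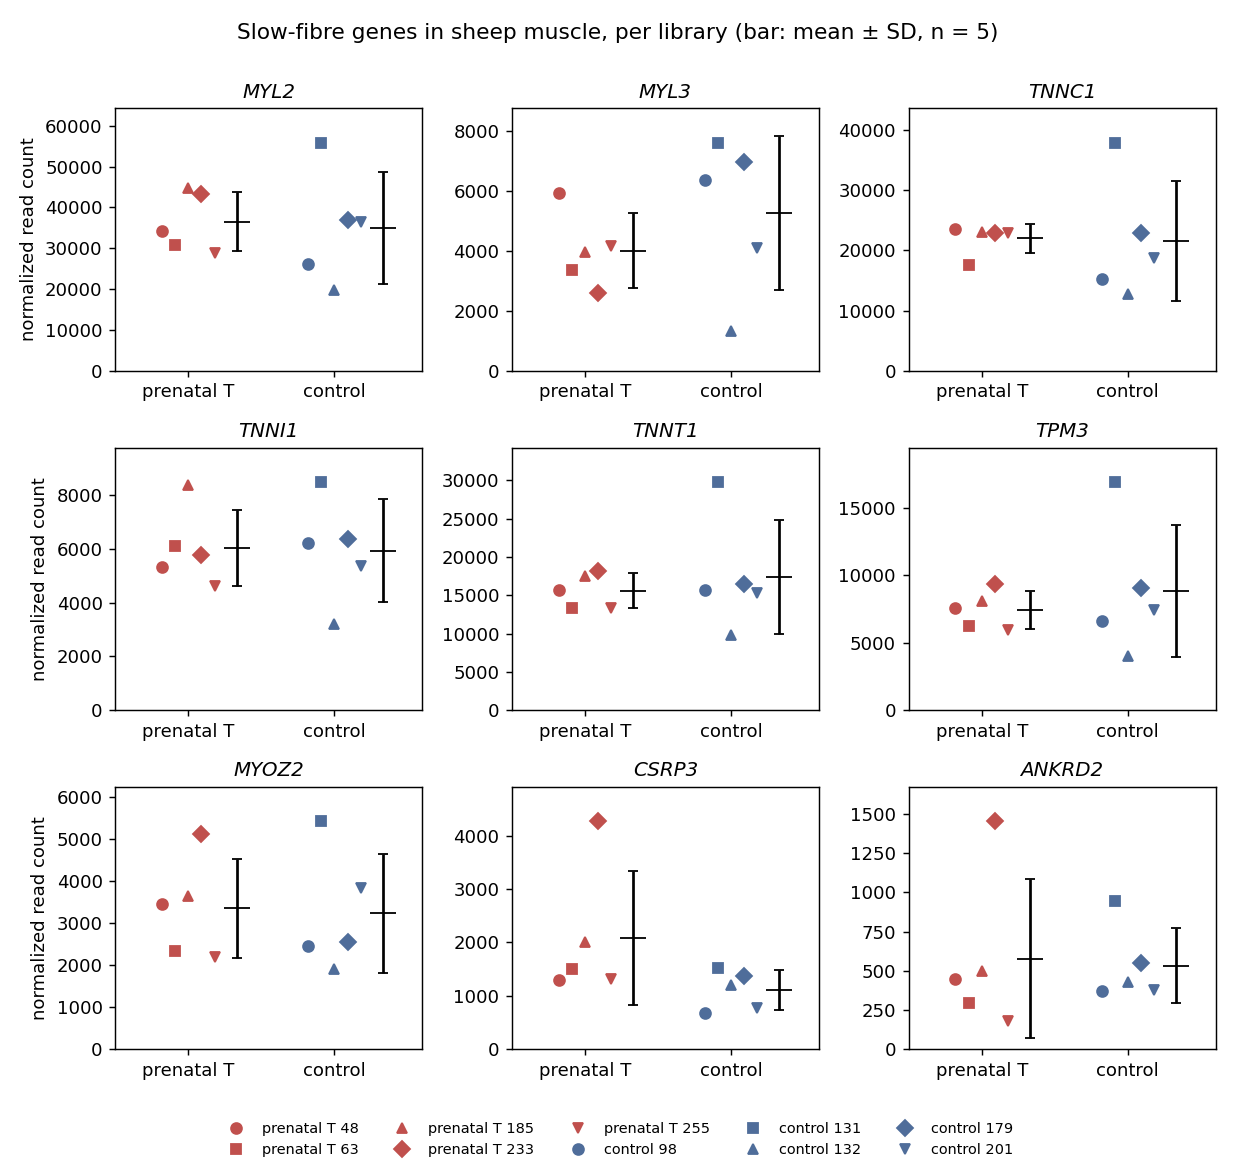
Normalized read counts (vertical axes) of the 9 slow-fibre genes in muscle, with 5 prenatal T sheep on the left and 5 control sheep on the right of each panel; points are sheep and bars the mean and SD. The groups overlap in all 9 panels, and for CSRP3 sheep 233 sits at 4269, above all other libraries.

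The light chains of the slow myosin come first. MYL2, the regulatory light chain of slow and ventricular myosin, had 34322, 30862, 44827, 43312 and 28926 normalized reads in prenatal T sheep 48, 63, 185, 233 and 255, against 26133, 55863, 19883, 36838 and 36505 in control sheep 98, 131, 132, 179 and 201. The highest and the lowest library were both controls, 131 and 132, and all 5 prenatal T values lay between them. The group means were 36449.8 ± 7239 in prenatal T muscle and 35044 ± 13675 in control muscle (SD, n = 5 each). This gave a log2 fold change of 0.12 ± 0.26 (SE), with a 95% interval of -0.45 to 0.69 and an adjusted p of 0.871 in limma.

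MYL3, the essential light chain of the same myosin, had 5936, 3353, 3974, 2605 and 4159 normalized reads in the prenatal T sheep, in the order above, against 6368, 7601, 1316, 6945 and 4079.6 in the controls. Control 132 was again the lowest library, and 3 controls, 98, 131 and 179, lay above every prenatal T sheep. The means were 4005 ± 1239 in prenatal T muscle and 5262 ± 2574 in control muscle (SD, n = 5 each), a log2 fold change of -0.21 ± 0.40 (SE; 95% interval -1.08 to 0.65; limma adjusted p 0.843). The size of this difference turned on single libraries. Without control 132 the log2 fold change was -0.66, with an unadjusted p of 0.0168 and an adjusted p of 0.292 in limma, and without sheep 48 it was -0.37. It shrank to -0.02 without control 131, -0.06 without control 179, -0.07 without sheep 233 and -0.09 without control 98.

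None of the 3 troponin genes separated the groups. TNNC1, the calcium-binding subunit, had 23522, 17619, 23096, 22929.6 and 22864 normalized reads in prenatal T sheep 48, 63, 185, 233 and 255, against 15305, 37925, 12706, 22889 and 18815 in control sheep 98, 131, 132, 179 and 201. In prenatal T muscle 4 of the 5 values lay close together with sheep 63 below them, whereas the controls spread nearly 3-fold (2.98) between sheep 131 and 132. The means were 22006 ± 2466 in prenatal T muscle and 21528 ± 9933 in control muscle (SD, n = 5 each). In limma the log2 fold change was 0.13 ± 0.26 (SE), with a 95% interval of -0.42 to 0.68 and an adjusted p of 0.849.

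TNNI1, the inhibitory subunit, had 5333, 6121, 8367, 5764 and 4628 normalized reads in the prenatal T sheep, against 6219.7, 8486, 3189, 6347 and 5377 in the controls. Sheep 185 was the highest of the prenatal T animals and came just under control 131. The means were 6043 ± 1413 in prenatal T muscle and 5924 ± 1911 in control muscle (SD, n = 5 each), with a log2 fold change of 0.07 ± 0.23 (SE; 95% interval -0.44 to 0.57; limma adjusted p 0.921).

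TNNT1, the tropomyosin-binding subunit, had 15636, 13335, 17472, 18165 and 13291 normalized reads in the prenatal T sheep, against 15666, 29790.1, 9764, 16407 and 15314 in the controls. Control 131 stood well above the other 9 libraries and control 132 was below all of them. The means were 15579.9 ± 2267 in prenatal T muscle and 17388 ± 7419 in control muscle (SD, n = 5 each). Between the groups the log2 fold change was -0.08 ± 0.25 (SE), with a 95% interval of -0.60 to 0.45 and a limma adjusted p of 0.916.

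TPM3 encodes the slow-fibre tropomyosin, which lies along the thin filament and is moved by troponin, and it also gives non-muscle forms that a count per gene does not separate. It had 7592, 6219, 8107, 9358 and 5918 normalized reads in the prenatal T sheep, against 6641, 16944, 3999, 9062 and 7458 in the controls. Control 131 was again the highest library and control 132 the lowest. The means were 7439 ± 1410.2 in prenatal T muscle and 8821 ± 4897 in control muscle (SD, n = 5 each), with a log2 fold change of -0.10 ± 0.30 (SE; 95% interval -0.74 to 0.54; limma adjusted p 0.906). The signs for TNNT1 and TPM3 turned to 0.04 and 0.02 when the contractile genes and the 50 most abundant genes were left out of the scaling.

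At the Z-disc, MYOZ2 encodes calsarcin-1, which tethers calcineurin there in slow and heart muscle. Its values were 3447, 2342, 3656, 5109 and 2201 normalized reads in prenatal T sheep 48, 63, 185, 233 and 255, against 2446, 5422, 1904, 2556 and 3838 in control sheep 98, 131, 132, 179 and 201. The animals at the top were control 131 and prenatal T sheep 233, and the groups covered nearly the same range. The means were 3351 ± 1176 in prenatal T muscle and 3233 ± 1414 in control muscle (SD, n = 5 each), with a log2 fold change of 0.08 ± 0.28 (SE; 95% interval -0.53 to 0.70; limma adjusted p 0.921).

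CSRP3, the muscle LIM protein that takes part in stretch sensing, was the member with the largest difference. It had 1293, 1504, 2005, 4269 and 1326 normalized reads in prenatal T sheep 48, 63, 185, 233 and 255, against 674, 1525, 1197, 1377 and 782 in control sheep 98, 131, 132, 179 and 201. Sheep 233 lay far above all others, controls 98 and 201 were the lowest 2 libraries, and the remaining prenatal T and control values overlapped. The means were 2079 ± 1257 in prenatal T muscle and 1111 ± 370.5 in control muscle (SD, n = 5 each), a ratio of 1.87. The log2 fold change was 0.81 ± 0.32 (SE), with a 95% interval of 0.13 to 1.49, an unadjusted p of 0.0235 and an adjusted p of 0.279 in limma. This SE rests on a variance shrunk towards a trend over all genes, not on CSRP3 alone. In 1 limma fit over all 19 libraries the unadjusted p was 0.0702. On the recovered reads the adjusted p was 0.248 with edgeR and 0.116 with DESeq2. Without sheep 233 the ratio of means was 1.38 and the log2 fold change 0.51, with an unadjusted p of 0.0537 and an adjusted p of 0.381 in limma. The unadjusted p was also above 0.05 without control 98 (0.0675) and without control 201 (0.0587).

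ANKRD2, a stretch-responsive ankyrin repeat protein found mainly in slow fibres, had 449.5, 298, 500.1, 1452 and 183 normalized reads in the prenatal T sheep, against 369, 946, 426, 549 and 379 in the controls. Sheep 233 was again the highest library, while prenatal T sheep 255 and 63 were the lowest 2. The means were 576 ± 505 in prenatal T muscle and 534 ± 241 in control muscle (SD, n = 5 each). The log2 fold change had the other sign from the ratio of means (1.08), at -0.16 ± 0.44 (SE; 95% interval -1.10 to 0.78; limma adjusted p 0.903). With edgeR and DESeq2 it was 0.12. Without sheep 233 the ratio of means was 0.670 and the log2 fold change -0.58, with a limma adjusted p of 0.451.

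**Figure D2:**
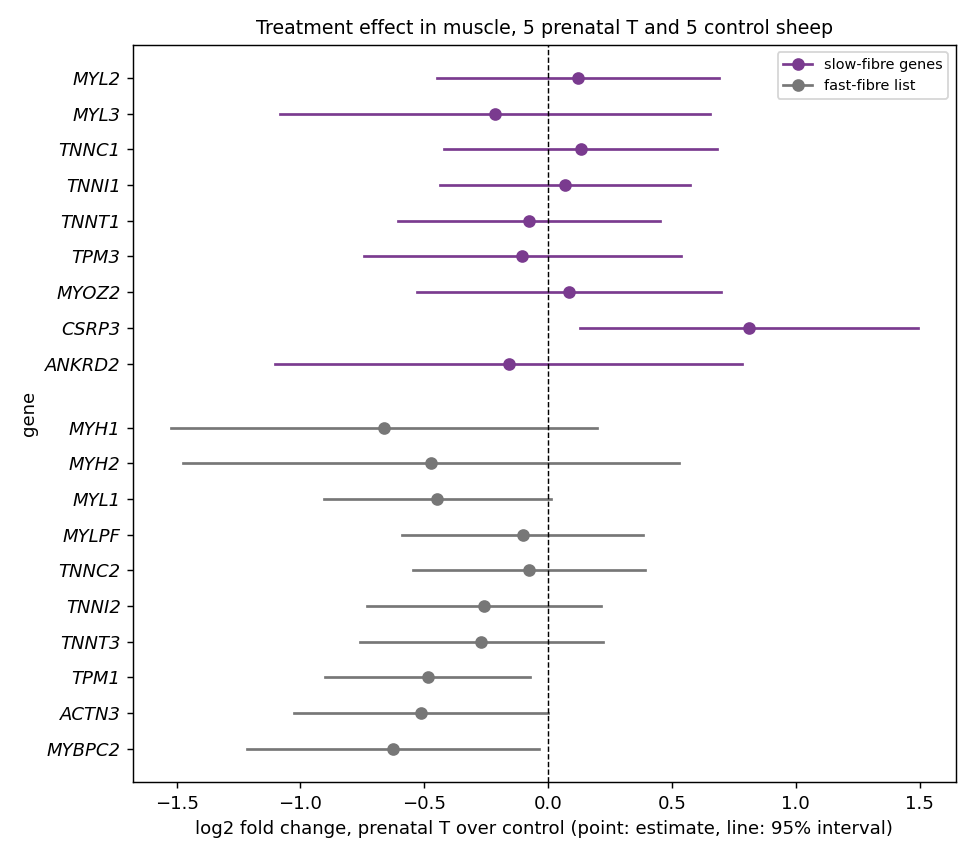
Log2 fold change of prenatal T over control muscle for each slow-fibre gene and the fast-fibre genes, with points for the limma estimate on the log2(normalized reads + 1) scale and bars for the 95% interval. Among the slow-fibre genes the interval of CSRP3 (0.13 to 1.49) lies above 0 and those of the other 8 span 0, while all 10 fast-fibre estimates lie below 0 (8 of 10 when the contractile and most abundant genes are left out of the scaling).

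With both groups pooled, the slow-fibre genes varied more between sheep of one group than most genes did. The SD was larger in control than in prenatal T muscle for all members but CSRP3 and ANKRD2. For TNNC1 it was 9933 normalized reads in control muscle and 2466 in prenatal T muscle, and for CSRP3 370.5 and 1257. The residual SD on the log2 scale, the spread left after the group means are taken out, was 0.43 for TNNI1 and TNNT1, 0.45 for MYL2 and TNNC1, 0.55 for MYOZ2 and 0.57 for TPM3. It was 0.62 for CSRP3, 0.80 for MYL3 and 0.88 for ANKRD2. The median over all genes tested was 0.31, and from 72.5% of all genes (TNNI1) to 96.0% (ANKRD2) had a smaller SD than the member. This spread, shrunk towards a trend over all genes in limma, limited what could be seen. For TNNI1, the member with the smallest SD, the 95% interval of the fold allowed anything from 0.740 to 1.49, and for ANKRD2 from 0.466 to 1.72.

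For most members the extremes were 2 control animals. Control 131 was the highest of the 10 libraries for 7 of the 9 members, all but CSRP3 and ANKRD2, and control 132 was the lowest for the same 7. Control 131 held 2.66 times (TNNI1) to 5.78 times (MYL3) the level of control 132 for those 7, with TPM3 at 4.24. ANKRD2 followed at 2.22 times and CSRP3 at 1.27 times. The gap was not confined to slow genes, since the fast oxidative chain MYH2 stood at 3.32 times. Other fast genes were closer between the same 2 sheep, at 1.04 times for MYLPF, 1.06 times for TNNC2 and TNNI2, 0.982 times for TNNT3, 0.839 times for TPM1, 0.859 times for MYH1 and 1.48 times for MYL1. Averaged over the 9 members, the log2 deviation from the 10-library mean was 0.06, -0.24, 0.23, 0.47 and -0.33 in prenatal T sheep 48, 63, 185, 233 and 255. In controls 98, 131, 132, 179 and 201 it was -0.23, 0.78, -0.75, 0.15 and -0.13, so that the prenatal T sheep lay within the range of the controls. Without control 131, 1 of the 9 log2 fold changes was below 0, and without control 132, 8 were.

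**Figure D3:**
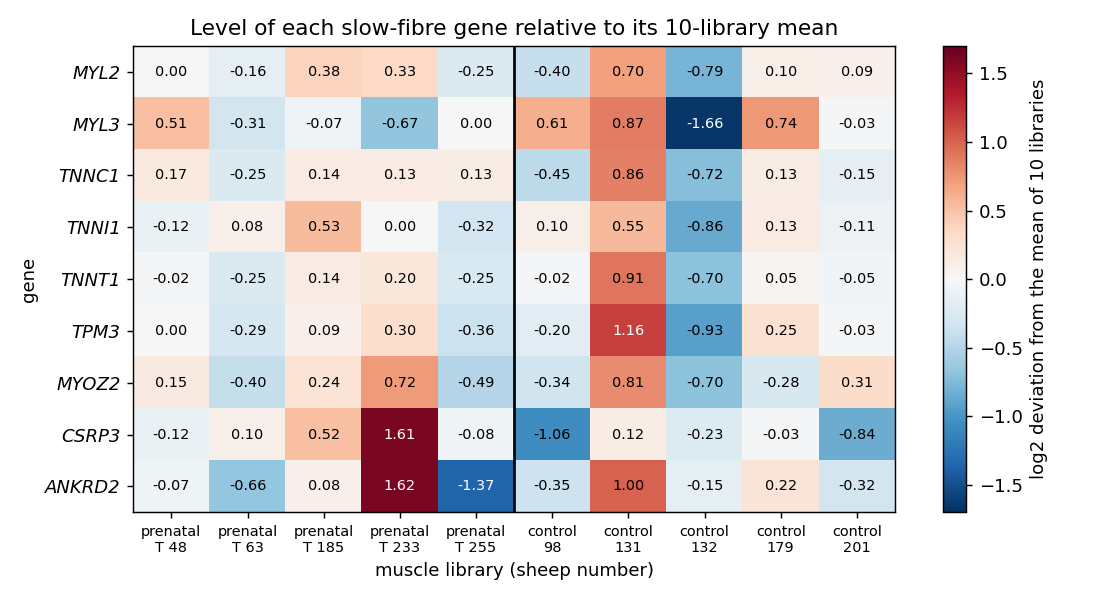
Log2 deviation of each slow-fibre gene (rows) from its mean over the 10 muscle libraries (columns, prenatal T sheep on the left and control sheep on the right), with the value written in each cell. Control 131 is above 0 in all 9 rows and control 132 below 0 in all 9, and sheep 233 has its highest values in CSRP3 and ANKRD2.

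Within a library some members kept closer proportions to each other than others did. The read ratio of MYL2 to TNNC1 lay between 1.27 and 1.94 in prenatal T muscle and between 1.47 and 1.94 in control muscle. That of MYL2 to TNNT1 lay between 2.18 and 2.57 in prenatal T muscle and between 1.67 and 2.38 in control muscle. In contrast, the ratio of MYL2 to MYL3 ran from 5.78 to 16.6 in prenatal T muscle and from 4.10 to 15.1 in control muscle, although both light chains sit on the same myosin. CSRP3 and ANKRD2 moved apart from the filament proteins in sheep 233. There the ratio of CSRP3 to MYL2 was 0.0986, against 0.0377 to 0.0487 in the other prenatal T sheep and 0.0214 to 0.0602 in the controls. ANKRD1, another stretch-responsive member of the ANKRD2 family, was also highest in sheep 233, at 3957 normalized reads, followed by control 131 at 2713. ANKRD23, a further ankyrin repeat gene, had the reverse order, at 20487 in control 131 and 16333 in sheep 233.

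A share of slow reads in a slow and fast pair does not depend on the scaling between libraries. MYL2 made up 25.0, 24.9, 28.9, 25.6 and 19.2% of MYL2 and MYLPF reads in prenatal T sheep 48, 63, 185, 233 and 255, against 19.6, 30.1, 13.8, 22.3 and 26.1% in control sheep 98, 131, 132, 179 and 201. Control 131 and control 132 were the extremes once more. The mean share was 24.7 ± 3.50% in prenatal T muscle and 22.4 ± 6.22% in control muscle (SD, n = 5 each), a difference of 2.36 percentage points. An exact two-sided permutation test over the 252 assignments gave p = 0.492, where 0.00794 is the smallest value it can give. This pair took the place of the MYH7 share of myosin heavy chain reads and was chosen after the values were seen.

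The other slow shares are given without a test. TNNC1 made up 17.0 ± 2.46% of TNNC1 and TNNC2 reads in prenatal T muscle and 15.5 ± 5.01% in control muscle (SD, n = 5 each, as for all shares). TNNT1 made up 12.1 ± 1.74% of its pair with TNNT3 in prenatal T muscle and 11.2 ± 3.78% in control muscle. TNNI1 made up 7.89 ± 1.40% of its pair with TNNI2 in prenatal T muscle and 6.57 ± 1.83% in control muscle. All 3 troponin shares had overlapping groups and their lowest value in control 132. For TPM3 with TPM1 the share was 13.9 ± 2.35% in prenatal T muscle and 11.9 ± 6.29% in control muscle, with controls 131 and 132 at 22.3 and 5.39%. For MYL3 with MYL1 it was 8.78 ± 3.39% in prenatal T muscle and 7.95 ± 3.30% in control muscle. The mean share was higher in prenatal T muscle for all 6 pairs, by 0.831 to 2.36 percentage points, each less than the SD in control muscle. The pairs share the same sheep and are not independent.

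**Figure D4:**
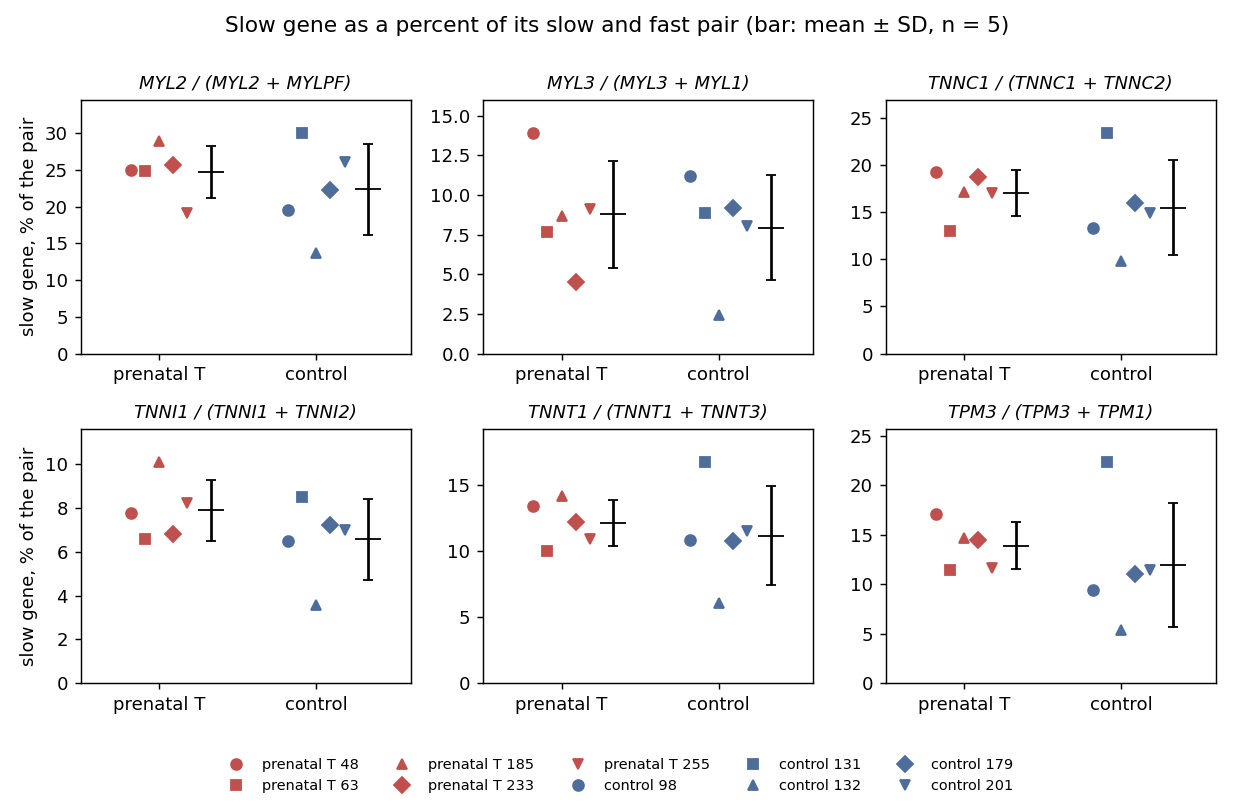
Share of slow-gene reads in 6 slow and fast pairs (vertical axes, percent), with 5 prenatal T sheep on the left and 5 control sheep on the right of each panel; points are sheep and bars the mean and SD. Groups overlap in every panel and control 132 has the lowest share in all 6.

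Of 10 fast contractile genes tested, 0 passed in limma or edgeR and 1 in DESeq2, which called 1.94% of all genes. All 10 log2 fold changes were below 0, with a median of -0.46. This was not particular to fast genes, since all 5 markers of skeletal fibres were below 0 too, with a median of -0.36. With the contractile and most abundant genes left out of the scaling, 8 of the 10 fast genes were below 0 and their median was -0.34. Under that scaling 4 of the 5 markers were below 0, with a median of -0.24. In limma 3 of the 10, all lower in prenatal T muscle, had an unadjusted p under 0.05, against 14.4% of all genes tested (7.0% lower). That count was 0 under the same scaling, 0 with no filter on low genes, and 0 or 1 without controls 98, 131, 132 or 179 or sheep 48 or 255. It rose to 5 with a mean of at least 50 (839 of all 9919 genes tested lower) and to 5 with robust variance shrinkage (901 of 12966). With weighted libraries it was 4 (1003 of 12966), as it was without control 201 or without sheep 233. It was 5 in edgeR and 6 in DESeq2, where 784 and 867 of all 12966 genes tested were lower at that threshold. TPM1, the fast alpha-tropomyosin, had 36735, 47996, 47023, 55266 and 44697 normalized reads in the prenatal T sheep, against 63765, 58919, 70251, 72779 and 57514 in the controls. Every prenatal T sheep was below every control for TPM1, and 3.29% of all genes tested had groups that did not overlap. Its log2 fold change was -0.49 ± 0.19 (SE), with an adjusted p of 0.283 in limma and 0.0327 in DESeq2, the 1 gene of the list that DESeq2 called. MYBPC2, the fast myosin-binding protein C, averaged 42621 ± 13036 in prenatal T muscle and 63728 ± 12780.4 in control muscle (SD, n = 5 each; limma adjusted p 0.324), and ACTN3, the fast alpha-actinin, had an adjusted p of 0.347.

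None of the fast light chain and troponin counterparts passed. The log2 fold change was -0.45 for MYL1, -0.10 for MYLPF, -0.08 for TNNC2, -0.26 for TNNI2 and -0.27 for TNNT3, with limma adjusted p from 0.357 to 0.906. MYH1, the fast 2X myosin heavy chain, averaged 471794 ± 156872 normalized reads in prenatal T muscle and 710412 ± 72604 in control muscle (SD, n = 5 each), with sheep 48 lowest at 237059 (log2 fold change -0.66, limma adjusted p 0.476). MYH2, the fast oxidative 2A chain, averaged 69880.3 ± 39601 in prenatal T muscle and 89499 ± 37714 in control muscle (SD, n = 5 each; limma adjusted p 0.680). MYH1 and MYH2 are closely similar genes, and the sources used here do not say how reads shared between them were counted.

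Among 10 other genes linked to slow fibres, 0 passed in limma, edgeR or DESeq2, 5 were above 0 and 5 below, and the median log2 fold change was 0.01. At an unadjusted p under 0.05 limma had 1, MYH7B, a slow-type myosin heavy chain gene, against 14.4% of all genes tested (7.37% higher). It averaged 3394 ± 1359 normalized reads in prenatal T muscle and 2029 ± 739 in control muscle (SD, n = 5 each; log2 fold change 0.74, limma adjusted p 0.283). That count was 0 without control 98, sheep 185 or sheep 233, and 2 or 3 without controls 131, 132 or 179 or sheep 48 or 255. In edgeR and in DESeq2 it was 3 higher and 1 lower. Of all 12966 genes tested, 1053 were higher and 784 lower in edgeR, and 1062 and 867 in DESeq2. The median ran from -0.15 without control 132 to 0.22 without control 131. The next 2 pointed opposite ways. CASQ2, the slow and cardiac calsequestrin that stores calcium, averaged 549 ± 327 in prenatal T muscle and 306 ± 112 in control muscle (SD, n = 5 each; limma adjusted p 0.377). ATP2A2, the calcium pump of slow and cardiac reticulum, averaged 21679.7 ± 3763 in prenatal T muscle and 34757 ± 16043 in control muscle (SD, n = 5 each; limma adjusted p 0.403). ATP2A2 shared the extremes of the members, at 58673 in control 131 and 15761 in control 132.

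Of 24 regulators of the slow programme, 0 passed in limma or edgeR and DESeq2 called 1, PPP3CB, against 1.94% of all genes. Their log2 fold change was above 0 for 11 and below 0 for 13, with a median of -0.12 that was -0.06 without control 131 and -0.07 without sheep 48. In limma 4 of the 24 had an unadjusted p under 0.05, all lower in prenatal T muscle, against 14.4% of all genes tested (7.0% lower). With the contractile and most abundant genes left out of the scaling, 1 was higher and 2 lower, and the median was -0.01. PPP3CB, a catalytic subunit of calcineurin, had 3330.2, 3933, 3048, 3578 and 3681 normalized reads in the prenatal T sheep, against 5429.7, 4581, 4457, 4835 and 4505 in the controls. Every prenatal T sheep was below every control (log2 fold change -0.44 ± 0.12 SE), with an adjusted p of 0.167 in limma and 0.0125 in DESeq2. The groups failed to overlap for 3.29% of all genes tested, and PPP3CB was named for its small p. PPP3R1, the regulatory subunit of calcineurin, averaged 3045 ± 513 in prenatal T muscle and 3912 ± 362 in control muscle (SD, n = 5 each; limma adjusted p 0.255). Another catalytic subunit gene, PPP3CA, averaged 2316 ± 643 in prenatal T muscle and 2249.5 ± 416 in control muscle (SD, n = 5 each, limma adjusted p 0.971).

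The remaining 2 of the 4 were transcription factors of the fast programme in mice. TBX15 averaged 2308 ± 847 normalized reads in prenatal T muscle and 3859 ± 1058 in control muscle (SD, n = 5 each; log2 fold change -0.78, limma adjusted p 0.213). SOX6 averaged 829.8 ± 185 in prenatal T muscle and 1069 ± 121 in control muscle (SD, n = 5 each; log2 fold change -0.39, limma adjusted p 0.293). PPARGC1A averaged 273 ± 96.2 in prenatal T muscle and 368 ± 203 in control muscle (SD, n = 5 each; limma adjusted p 0.709).

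Of 10 partners at the Z-disc and in stretch sensing, 0 passed in limma, edgeR or DESeq2, and 9 were below 0, with a median log2 fold change of -0.32 (-0.20 with the contractile and most abundant genes left out of the scaling). CSRP3 thus differed in sign from most of its partners. The lowest p was that of MYPN, myopalladin, which averaged 8567 ± 1831 normalized reads in prenatal T muscle and 11558 ± 585 in control muscle with no overlap (SD, n = 5 each; log2 fold change -0.46, limma adjusted p 0.241). Groups did not overlap for 3.29% of all genes tested. ACTN2, the alpha-actinin of all fibres, averaged 39196 ± 8236 in prenatal T muscle and 50847 ± 8776 in control muscle (SD, n = 5 each; limma adjusted p 0.439). For titin, TTN, the means were 226046 ± 65182 in prenatal T muscle and 303495 ± 35787 in control muscle (SD, n = 5 each; limma adjusted p 0.529).

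Of 7 embryonic and denervation genes with a row, 4 had a mean of at least 10 and were tested, with 0 calls in limma, edgeR or DESeq2. All 4 log2 fold changes were above 0, with a median of 0.47. Without control 132 the median was 0.27 and 1 of the 4 was below 0, and without sheep 233 the median was 0.31. MYOG, myogenin, averaged 158 ± 43.5 normalized reads in prenatal T muscle and 113 ± 40.0 in control muscle (SD, n = 5 each; limma adjusted p 0.449). NCAM1, a cell adhesion molecule raised after denervation, averaged 42.0 ± 17.8 in prenatal T muscle and 29.2 ± 12.1 in control muscle. ACTC1, the cardiac and fetal actin, averaged 220 ± 181 in prenatal T muscle and 150 ± 95.8 in control muscle (SD, n = 5 each).

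Likeness in pattern was measured against MYL2, as the Pearson correlation over the 10 muscle libraries of log2(normalized reads + 1) with each group mean taken out, across 9212 other genes. These had a mean of at least 50 normalized reads in muscle and a symbol that does not start with LOC. Of these genes TPM3 was the most alike (r = 0.957). TNNT1 ranked 4 (0.934), MYOZ2 9 (0.888), TNNC1 13 (0.884) and TNNI1 32 (0.832). ANKRD2 (0.643), MYL3 (0.563) and CSRP3 (0.492) ranked lower, at 329, 617 and 914. Among the fast counterparts MYL1 (0.637) and MYH2 (0.609) were more alike to MYL2 than the members MYL3 and CSRP3 were. The others were at 0.257 for MYLPF, 0.181 for TNNC2, 0.174 for TNNI2, 0.024 for TNNT3, -0.118 for TPM1 and -0.202 for MYH1. These values describe 10 libraries, in which controls 131 and 132 are the extremes.

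The genes outside the members most like MYL2 were led by SLC16A1, the lactate transporter MCT1 (r = 0.953), CHRDL2, a chordin-like secreted protein (0.934), and DMPK, the myotonic dystrophy kinase (0.932). They were followed by ZNF511 (0.907), SLC26A10 (0.896), IGFBP7, a secreted growth factor binding protein (0.890), the orphan nuclear receptor ESRRB (0.887) and RAP1GAP2 (0.886). SLC16A1 had 946, 672, 1008, 1190.0 and 587 normalized reads in the prenatal T sheep, against 720, 1633, 584, 972 and 965 in the controls, with controls 131 and 132 at the ends as for MYL2. The most opposed were BCDIN3D (-0.958), SET (-0.939), the cap-binding protein gene NCBP1 (-0.911) and the translation initiation factor gene EIF3D (-0.906).

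In liver the members were near or at 0. The highest liver value of any member was 18.1 normalized reads for TPM3 and 13.4 for MYL3, against a lowest muscle value of 3999 for TPM3 and 1316 for MYL3. MYL2 was at 0 in 8 of 9 liver libraries. Levels in the 2 tissues were scaled separately, so they separate silent from expressed and nothing finer.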

How the data were processed

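The deposited values are a signal, reads per gene scaled by library. The submitters' processing notes name Trimmomatic (a read trimmer), STAR (an aligner) and featureCounts 1.6.1 (a read counter). The sources used here do not give the genome build, annotation or strand setting. In the authors' values 100% came out as whole reads within 0.01 read in every library. In control 98, where 1 read was worth 0.992 and the step is harder to tell from 1, the largest distance from a whole read was 4.5e-05. The scaling equalled median-of-ratios size factors within each tissue to a relative 4.6e-11.

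For genes with a mean of at least 10 in muscle, limma 3.58.1 (R 4.3.3, trended variance, Benjamini-Hochberg threshold 0.05) compared log2(value + 1) between the groups. This scale understates changes of low genes. The labels name no batch. edgeR 4.0.16 and DESeq2 1.42.0 on the recovered reads were alternatives, with other pseudocounts, filters, scalings, weights and left-out libraries. The limma fit was also run on counts simulated with known fold changes. The limma SEs and intervals use a variance for each gene that is shrunk towards a trend over all genes. They can be narrower or wider than the gene's own spread between sheep would give. The members and gene lists were chosen with earlier results of these data known. Named were every member, its fast counterparts, and the 8 most alike and 4 most opposed genes. In each other list the genes past the threshold or up to 3 with the smallest p were named. PPARGC1A, PPP3CA, SOX6, ANKRD1 and ANKRD23, and MYL2 in place of MYH7 for the share and the likeness, were added after the values were seen. MYH4 and MYOZ1 were not analysed here.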

Additional observations from a re-analysis of the deposited data

Results flagged for a closer look

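Of 30 groups of 5 values examined, for the 9 members and the 6 slow shares in each group of muscle, 3 held a sheep far from the other 4. For independent and normally distributed values about 5% of such groups would by chance. The groups here share sheep and genes, so 5% is not the chance share for them. TNNC1 was at 17620 normalized reads in prenatal T sheep 63, below the other 4 prenatal T sheep at 22864 to 23522, a gap of 0.888 of the group's range. CSRP3 was at 4269 in prenatal T sheep 233, above the other 4 at 1293 to 2005, a gap of 0.761 of the range. ANKRD2 was at 1452 in the same sheep, above the other 4 at 183 to 500.1, a gap of 0.750 of the range.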

How the results depend on the processing

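No member passed in any of the 22 settings tried besides the one reported, and the lowest adjusted p was 0.116, for CSRP3 in DESeq2. Of 198 member values, 184 kept their direction and 14 turned. The settings that changed only the filter or the variance, and the fits over all 19 libraries, cannot alter the log2 fold change. Their agreement in direction is therefore built in, and the other pseudocounts barely moved it. The turned values outside left-out libraries were TNNT1 at 0.044 and TPM3 at 0.015, under scaling without the contractile and 50 most abundant genes, and ANKRD2 at 0.12 in edgeR and 0.12 in DESeq2. That scaling raised the median of all genes by 0.12, and 1599 genes were then higher and 340 lower at an unadjusted p under 0.05, against 955 and 907. With 1 library left out, the log2 fold change ran from -0.061 to 0.31 for MYL2, -0.66 to -0.024 for MYL3, -0.031 to 0.36 for TNNC1, -0.14 to 0.22 for TNNI1, -0.26 to 0.14 for TNNT1, -0.35 to 0.17 for TPM3, -0.085 to 0.30 for MYOZ2, 0.51 to 0.94 for CSRP3 and -0.58 to 0.16 for ANKRD2. Members at an unadjusted p under 0.05 numbered 0 to 2, with 2 (CSRP3 and MYL3) without control 132. The members' median ran from -0.14 to 0.22. The MYL2 share difference ran from 0.212 to 4.28 percentage points, and was 0.22 as log2 odds.

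Over all genes the limma calls numbered 1 as reported, 0 with a pseudocount of 0.25 and 0 with a mean of at least 50. They numbered 21 under that other scaling and 0 to 4 with 1 library left out, while DESeq2 made 252 calls. The causes were not tested. The sheep number pairs liver with muscle of an animal, not the groups. With the sheep as a replicate block over all 19 libraries (correlation 0.113), 865 genes and 0 members had an unadjusted p under 0.05, and 865 genes without the block, against 1862. The alternatives for the MYH7 share were not run.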

Other observations

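The read ratio of CSRP3 to ANKRD2, both known as stretch-responsive in muscle, was 2.88, 5.05, 4.01, 2.94 and 7.27 in prenatal T sheep 48, 63, 185, 233 and 255, against 1.83, 1.61, 2.81, 2.51 and 2.06 in control sheep 98, 131, 132, 179 and 201. Every prenatal T sheep was above every control, although sheep 233, where both genes were highest, had the second lowest ratio of the prenatal T group. The mean ratio was 4.43 in prenatal T muscle and 2.16 in control muscle. The ratio was picked from 9 ratios after the values were seen and was not tested. Each of the genes alone overlapped between the groups. The share of all gene ratios that separate the groups was not computed, so this separation has no background to be set against.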
